A study of Ailuropoda melanoleuca with 25 samples.

Results

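AHSG, HRG, and GC encode 3 proteins that the liver secretes into blood plasma, and they were followed here as 3 of 25376 genes measured in giant panda (Ailuropoda melanoleuca) tissues. They were chosen by name, through the Ensembl identifiers that the study pairs with gene symbols: ENSAMEG00000001041 for AHSG, ENSAMEG00000001013 for HRG, and ENSAMEG00000006080 for GC. The study gives these pairs in its list of tissue-specific genes from these same samples. Tests of the 3 genes between tissues are therefore not independent evidence. The RNA of 5 tissues (liver, kidney, lung, heart, and spleen) was sequenced in each of 5 captive pandas that had died, which gave 25 libraries. Panda 1 was a female of 27 years that died of ovarian cancer, panda 2 was a female of 9 years that died of an intestinal condition, pandas 3 and 4 were females of 0.5 years, and panda 5 was a male of 0.5 years. The 3 young pandas died of a coronavirus infection. No panda was treated and none was a healthy control, so age, illness, and animal cannot be told apart in any difference between pandas.

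AHSG encodes fetuin-A, a plasma glycoprotein that binds calcium phosphate and keeps it from precipitating, and that falls in human plasma during the acute phase response. HRG encodes histidine-rich glycoprotein, an adaptor that binds heparin, plasminogen, fibrinogen, zinc, and heme. Both belong to the type 3 cystatin group with FETUB (fetuin-B) and KNG1 (kininogen, the precursor of bradykinin). GC encodes the vitamin D-binding protein, a member of the albumin family that carries vitamin D metabolites and removes actin released from damaged cells. After filtration in the kidney it is taken back up by the proximal tubule through megalin and cubilin. In the RefSeq annotation of the panda assembly ASM200744v3, KNG1, HRG, FETUB, and AHSG followed each other in this order with no other gene between them, and GC lay on another chromosome near AFM, AFP, and ALB of the albumin family.

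Levels are given in FPKM, the fragments of a gene divided by its length in kilobases and by the size of the library, so that genes can be set side by side. The reads behind each value were recovered from the steps of the table. The reads counted to genes summed to 13149580 to 21383380 per library (median 16215829), fewer than all reads sequenced. At these totals, 3 reads corresponded to 0.129 to 0.210 FPKM for AHSG, 0.0872 to 0.142 for HRG, and 0.0985 to 0.160 for GC, and a value of 0 allows a level up to this floor. The tissues carried their defining markers. The summed FPKM of 13 hepatocyte markers was 27006 to 60349 in the livers and at most 500 elsewhere, and that of 11 proximal tubule markers was 404 to 3281 in the kidneys and at most 18.1 elsewhere. The liver of panda 3 and the kidney of panda 4 stood apart from the others of their tissue. In the former, 1 gene without a symbol took 12.7% of all FPKM (4.13% to 7.42% for the highest gene in the other livers). Its part in the levels of other genes in that liver was not tested. The kidney of panda 4 had the lowest sum of proximal tubule markers, 404 against 1769 to 3281.

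All 3 genes were liver genes. In the liver, mean FPKM was 6978 ± 6194 for AHSG, 1598 ± 1279 for HRG, and 1306 ± 1406 for GC (SD, n = 5), and their means ranked 19, 116, and 135 among all genes there. AHSG made up 0.0748% to 1.63% of all FPKM in a liver library. The lowest liver value of each gene was above every value in the other 4 tissues.

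**Figure D1:**
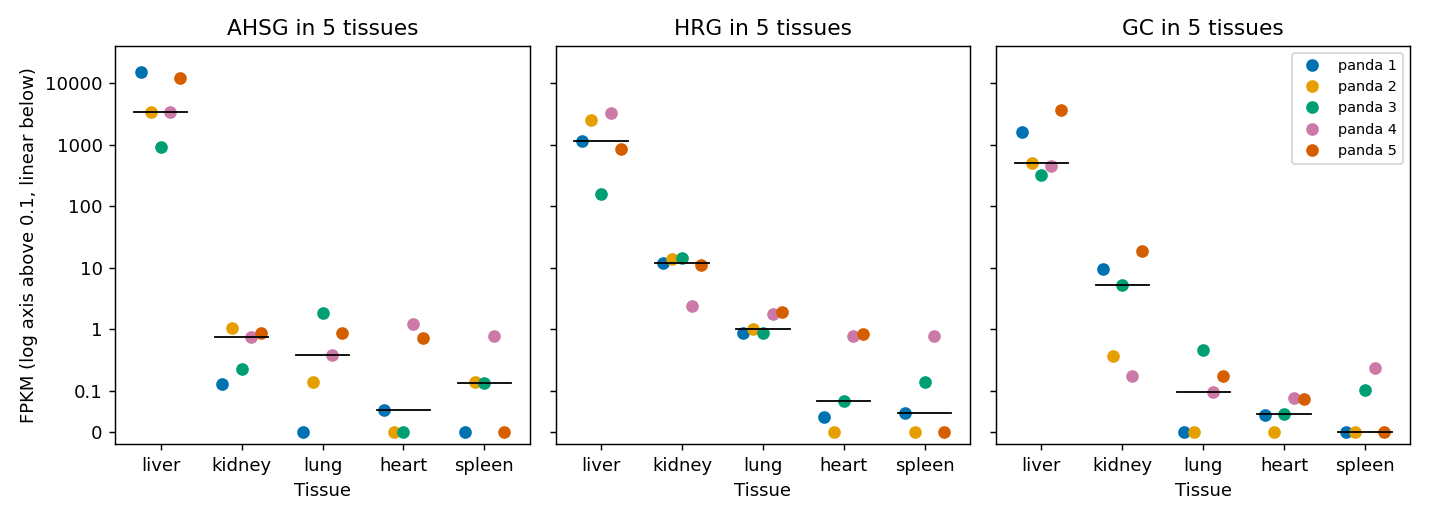
FPKM of AHSG, HRG, and GC (vertical axis, logarithmic above 0.1 and linear below) in 5 tissues (horizontal axis). Each point is 1 library, colored by panda, and bars are medians. Livers lie between 156 and 15048 FPKM, kidneys reach 14.3 for HRG and 19.0 for GC, and AHSG stays at or below 1.81 outside the liver.

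AHSG, the mineral-binding fetuin, had the largest contrast. In the livers it was at 15048, 3410, 928, 3403, and 12099 FPKM in pandas 1 to 5. The livers of pandas 1 and 5 were high, those of pandas 2 and 4 nearly equal, and that of panda 3 the lowest. In the kidneys of the same pandas it was at 0.132, 1.06, 0.231, 0.738, and 0.874 FPKM, from 2, 20, 4, 13, and 16 reads. The kidney with the fewest AHSG reads belonged to panda 1, whose liver had the most. In the hearts the values were 0.0540, 0, 0, 1.21, and 0.728 FPKM, in the spleens 0, 0.137, 0.136, 0.793, and 0, and in the lungs 0, 0.140, 1.81, 0.378, and 0.874. The ranges of the kidney, lung, heart, and spleen overlapped each other, and each of these tissues held at least 1 library near or above 0.8 FPKM.

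HRG, the adaptor protein, was at 1158, 2513, 156, 3299, and 861 FPKM in the livers of pandas 1 to 5. The order of the pandas differed from that of AHSG: pandas 4 and 2 were high here, and pandas 1 and 5 lower. In the kidneys HRG was at 12.1, 13.7, 14.3, 2.38, and 11.2 FPKM, from 62 to 381 reads. These levels were well above the read floor in all 5 kidneys, and in FPKM 4 of them lay close together. In the lungs HRG was at 0.882, 0.993, 0.859, 1.75, and 1.89 FPKM, from 19 to 48 reads. In the hearts it was at 0.0365, 0, 0.0754, 0.779, and 0.843 FPKM, and in the spleens at 0.0454, 0, 0.137, 0.782, and 0. Every kidney exceeded every lung, and in FPKM every lung exceeded every heart and spleen. With factors by the trimmed mean of M values (TMM), the lungs (0.468 to 1.18) overlapped the hearts of pandas 4 and 5 (1.24 and 1.30) and the spleen of panda 4 (0.521). The kidneys other than that of panda 4 were then spread from 8.56 to 15.1.

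GC, the vitamin D carrier, was at 1614, 495, 323, 455, and 3644 FPKM in the livers of pandas 1 to 5, so pandas 5 and 1 were high as for AHSG. In the kidneys it was at 9.54, 0.364, 5.27, 0.173, and 19.0 FPKM, from 190, 9, 120, 4, and 457 reads. Kidneys 1, 3, and 5 therefore carried GC clearly, and kidneys 2 and 4 were near the read floor. In the lungs it was at 0, 0, 0.459, 0.0961, and 0.178 FPKM. It reached 0.0838 FPKM in the hearts and 0.232 in the spleens, and 5 reads at most in either tissue. The lowest kidney value lay inside the range of the lungs and of the spleens.

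Expression in the liver was compared with that in the kidney with limma on log2(FPKM + 1), where the log2 difference of low genes is understated by the added 1. Differentially expressed genes (DEGs) were those past a log2 difference of 2 with a p below 0.05 after Benjamini-Hochberg adjustment. All 3 genes were DEGs higher in the liver, a direction in which 2.35% of 15755 tested genes were called. The log2 difference was 11.51 for AHSG (SE 0.63, adjusted p = 7.76e-08), 6.67 for HRG (SE 0.72, adjusted p = 2.24e-05), and 7.51 for GC (SE 0.84, adjusted p = 3.05e-05). Among all tested genes these differences ranked 1, 51, and 30 from the liver side, and the median over all tested genes was -0.89. As the 3 genes came from the study's list of tissue-specific genes, these calls and ranks describe them and are not independent evidence. With TMM factors the median was -0.05 and the differences were 12.50, 7.83, and 8.71. The calls held without the liver of panda 3 and the kidney of panda 4 together (12.12, 6.95, and 7.36). In whole tissue, fewer cells of a type and less RNA per cell cannot be told apart.

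**Figure D2:**
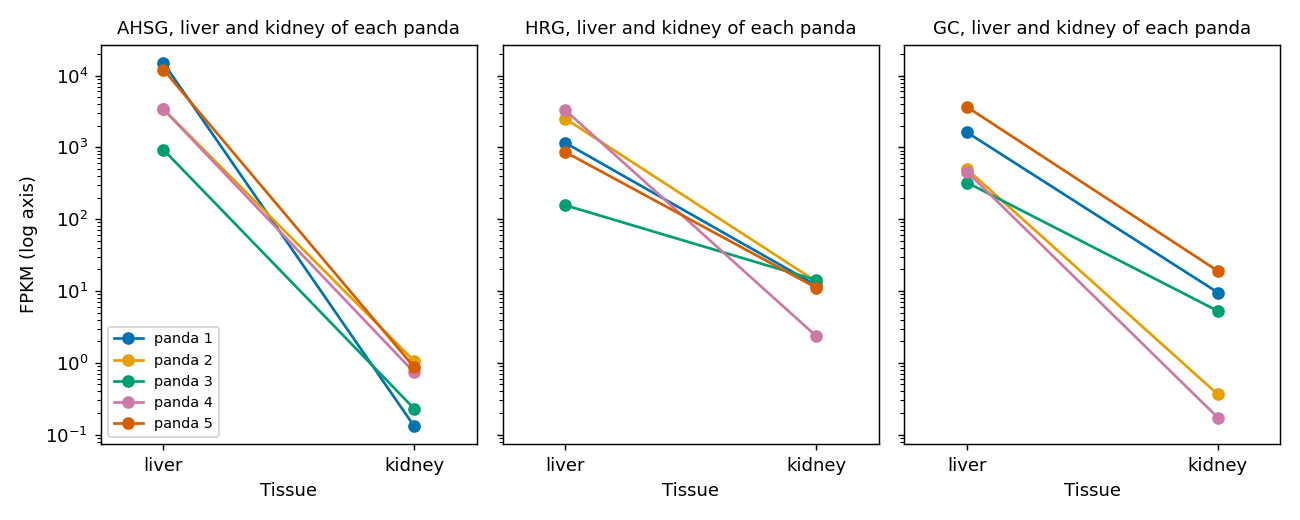
FPKM (logarithmic vertical axis) of AHSG, HRG, and GC in the liver and kidney of the same panda, joined by a line and colored by panda. AHSG falls to between 0.132 and 1.06 in every panda, HRG to between 2.38 and 14.3, and GC to values spread from 0.173 to 19.0.

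Since the liver and kidney came from the same animal, the kidney level was also expressed as a percentage of that panda's liver level. For AHSG it was 0.000875%, 0.0312%, 0.0249%, 0.0217%, and 0.00722% in pandas 1 to 5. The value in panda 1 rests on 2 kidney reads, and its exact 95% Poisson interval was 0.000106% to 0.00316%, below the intervals of the other 4 pandas. For HRG it was 1.04%, 0.544%, 9.12%, 0.0720%, and 1.30%. In FPKM, the highest HRG percentage was in panda 3, whose liver had the lowest HRG, and the lowest in panda 4, whose liver had the highest HRG and whose kidney the lowest. For GC it was 0.591%, 0.0736%, 1.63%, 0.0380%, and 0.522%. The median percentage was thus 0.0217% for AHSG, 1.04% for HRG, and 0.522% for GC, and the AHSG percentage was below those of HRG and GC in every panda. With TMM factors the medians were 0.00395%, 0.494%, and 0.243%. In panda 3 the HRG percentage was then 1.45%, still the highest, and that of GC 0.259%, no longer the highest (0.280% in panda 1). In pandas 2 and 4 the intervals of AHSG and GC overlapped (0.0190% to 0.0481% against 0.0336% to 0.140%, and 0.0115% to 0.0371% against 0.0104% to 0.0974%). These intervals cover counting error only.

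The difference between genes was tested within pandas by an exact two-sided sign-flip test, where 5 pandas allow no p below 0.0625. The kidney minus liver difference of HRG exceeded that of AHSG by 4.84 ± 2.62 on the log2(FPKM + 1) scale (SD, n = 5), with all 5 pandas in this direction (exact p = 0.0625, adjusted over 3 pairs of genes p = 0.0938). The difference of GC exceeded that of AHSG by 3.99 ± 1.83 in all 5 pandas (SD, n = 5, exact p = 0.0625, adjusted p = 0.0938). In pandas 2 and 4, kidney AHSG (1.06 and 0.738 FPKM) and GC (0.364 and 0.173 FPKM) were near or below the added 1. The added 1 enlarges the difference of GC from AHSG in these pandas (2.2 and 2.3), where the intervals of the percentages overlapped. HRG and GC differed by 0.85 ± 1.35, with HRG the higher in 4 of 5 pandas (SD, n = 5, exact p = 0.25, adjusted p = 0.25). The smallest differences, 1.0 for HRG against AHSG and the only negative one for HRG against GC, -1.33, were in panda 4.

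The ratio between the genes changed with the tissue. In the livers AHSG was 13, 1.36, 5.93, 1.03, and 14.0 times HRG in pandas 1 to 5, and in the kidneys 0.0109, 0.0777, 0.0162, 0.310, and 0.0782 times. AHSG was therefore at least level with HRG in every liver and below it in every kidney. Against GC, AHSG was 2.87 to 9.32 times as high in the livers. In the kidneys it was below GC in pandas 1, 3, and 5 (0.0138 to 0.0459 times) and above it in pandas 2 and 4 (2.92 and 4.26 times), where GC rested on 9 and 4 reads. In each panda the AHSG to HRG ratio was thus lower in the kidney than in the liver. For ratios with GC, the 9 and 4 kidney reads of pandas 2 and 4 leave a wide counting error.

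The cystatin neighbors of AHSG and HRG followed the same split. FETUB, which had a mean of 1270 ± 530 FPKM in the liver (SD, n = 5), was at 0 to 0.595 FPKM in the kidneys, a median of 0.0278% of the liver level. KNG1, at 1647 ± 681 FPKM in the liver, was at 118, 181, 245, 26.3, and 112 FPKM in the kidneys of pandas 1 to 5, a median of 6.70% of the liver level and a range from 1.28% in panda 4 to 50.4% in panda 3. KNG1 was also at 11.6 to 22.9 FPKM in the lungs and at most 0.818 in the hearts and spleens. Its order of tissues (liver, kidney, lung) was that of HRG in FPKM. With TMM factors, however, the HRG levels of the lungs overlapped those of hearts and of a spleen. Both relatives were DEGs higher in the liver than in the kidney, by 9.83 for FETUB (SE 0.35, adjusted p = 1.97e-09) and 3.73 for KNG1 (SE 0.57, adjusted p = 0.000335). On the chromosome, the pair with kidney reads (KNG1 and HRG) stood side by side, as did the pair nearly without (FETUB and AHSG). Of the albumin family beside GC, only AFM (afamin, a vitamin E carrier) could be matched to an identifier. It was at 31.0 to 658 FPKM in the livers, and the kidneys held 1 AFM read in all.

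**Figure D3:**
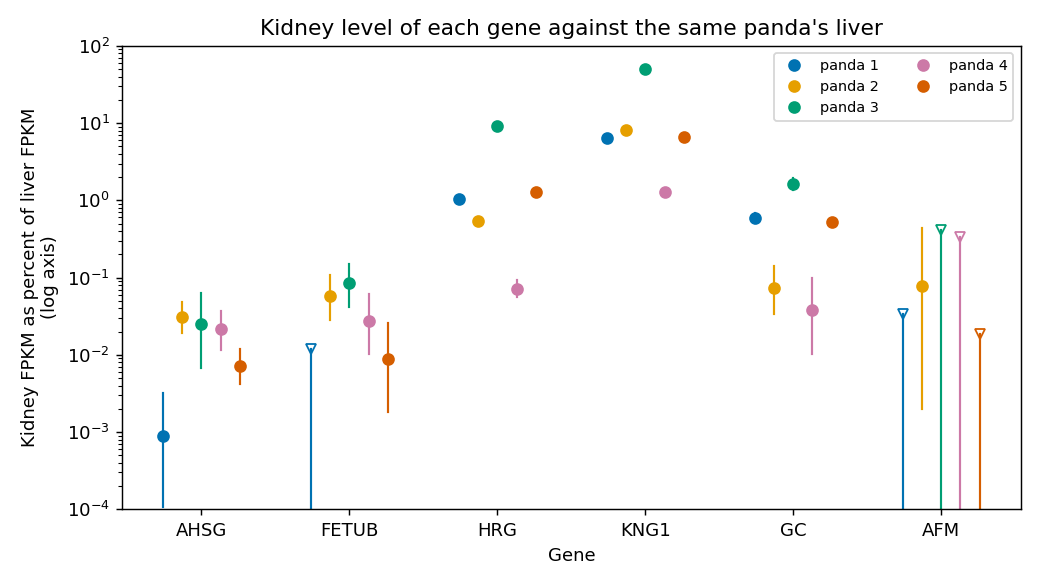
Kidney FPKM as a percentage of the liver FPKM of the same panda (logarithmic vertical axis) for AHSG, HRG, and GC and their relatives FETUB, KNG1, and AFM. Points are colored by panda, lines are exact 95% Poisson intervals of the kidney reads, and open triangles mark the upper limit where the kidney had 0 reads. AHSG and FETUB medians are 0.0217% and 0.0278%, and HRG and KNG1 medians 1.04% and 6.70%.

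In the kidney, HRG was set beside markers of the proximal tubule, the segment that reabsorbs filtered protein. The summed FPKM of the 11 markers was 3281, 3084, 1769, 404, and 2862 in pandas 1 to 5, and HRG was at 3.67, 4.43, 8.06, 5.88, and 3.90 FPKM per 1000 FPKM of this sum. The kidney of panda 4, low in HRG, was low in every kidney marker list: its summed FPKM of 5 markers of other kidney cells was 45.5, where the median kidney had 1054. KNG1 was also lowest in that kidney. GC was low also in the kidney of panda 2 (0.364 FPKM), whose marker sum of 3084 included 1675 of MIOX alone. Of the other markers, LRP2 (32.2 FPKM), CUBN (29.2), SLC22A6 (88.4), and SLC3A1 (123) were lower there than in pandas 1, 3, and 5. SLC6A19 (131) was highest there, and SLC34A1, SLC22A8, SLC5A2, SLC5A12, and SLC7A9 lay between their values in other kidneys. The markers of other kidney cells summed to 596 there, against 1054 to 1938 in pandas 1, 3, and 5. Relative to the same sum, GC ranged from 0.118 to 6.64 FPKM per 1000 and AHSG from 0.0401 to 1.82. The hepatocyte marker sum was 157, 131, 500, 53.1, and 156 FPKM in the kidneys, with 0 to 2 of 13 markers at 0 in each kidney. SERPINA1 alone gave 421 FPKM of this sum in panda 3 and 22 to 87 FPKM in the other kidneys, so the order of the sums rests largely on 1 gene. In FPKM, the kidney of panda 3, with the highest sum, had the most HRG (14.3) and KNG1 (245). Its AHSG (0.231 FPKM) and GC (5.27 FPKM) were not the highest. HRG and KNG1 were lowest in the kidney of panda 4, with the lowest sum. With TMM factors HRG was highest in the kidney of panda 2 (15.1, against 9.39 in panda 3) and still lowest in that of panda 4 (2.85). The part of either cell type in the kidney levels was not tested.

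**Figure D4:**
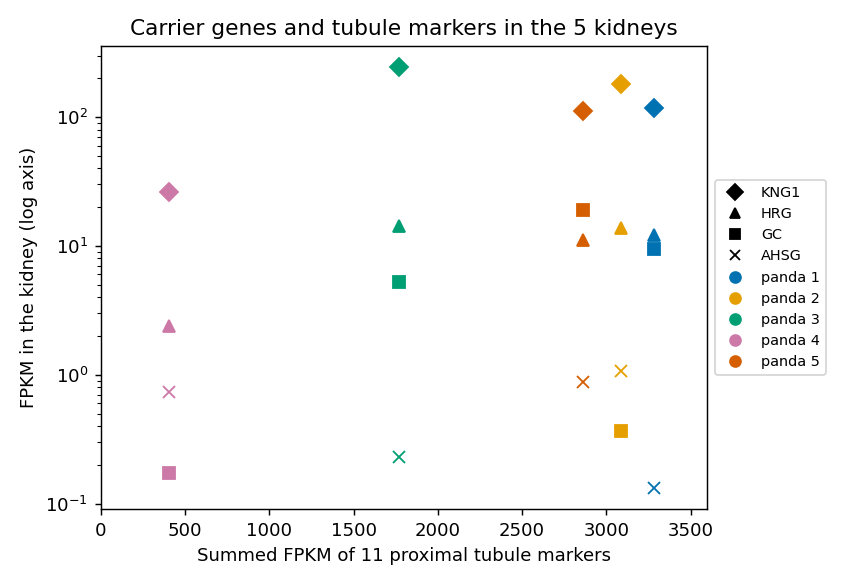
FPKM of KNG1, HRG, GC, and AHSG in the 5 kidneys (logarithmic vertical axis) against the summed FPKM of 11 proximal tubule markers in the same library (horizontal axis). Symbols mark genes and colors mark pandas. HRG and KNG1 are lowest in panda 4, which has the lowest marker sum, 404, and GC is near its lowest value also in panda 2, with a sum of 3084.

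The other 9 pairs of tissues gave 15 DEG calls for the 3 genes out of 27 combinations, not all of which were tested. Of all 10 pairs, 4 were tested for AHSG, 9 for HRG, and 7 for GC. In the rest neither tissue averaged more than 1 FPKM. Each gene was higher in the liver than in the heart, spleen, and lung, directions in which 7.28%, 3.94%, and 3.34% of tested genes were called. For AHSG the log2 difference from these tissues was 11.54 to 11.91, for HRG 8.88 to 9.83, and for GC 9.54 to 9.65, with adjusted p between 2.71e-08 and 6.82e-07. HRG was also a DEG higher in the kidney than in the heart, by 3.0 (SE 0.41, adjusted p = 5.78e-05), the spleen, by 3.16 (SE 0.40, adjusted p = 3.68e-05), and the lung, by 2.22 (SE 0.40, adjusted p = 0.000726). In these directions 12.3%, 6.25%, and 4.88% of tested genes were called. Of the 3 genes, HRG alone averaged more than 1 FPKM in the lung. It was higher there than in the heart by 0.78 (SE 0.24, adjusted p = 0.00848) and than in the spleen by 0.94 (SE 0.22, adjusted p = 0.00703), below the log2 threshold of 2. With quantile normalization the difference from the heart was 0.14 (adjusted p = 0.708), and with all libraries in one limma fit the adjusted p was 0.184 against the heart and 0.237 against the spleen. An adjusted p below 0.05 with a higher level in the lung was reached by 71.4% of genes tested against the heart and 15.8% of those tested against the spleen.

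GC passed the same thresholds in the kidney by a small margin. It was higher there than in the heart by 2.14 (SE 0.65, adjusted p = 0.0131), the spleen by 2.12 (SE 0.66, adjusted p = 0.0171), and the lung by 2.03 (SE 0.66, adjusted p = 0.0229). Without the kidney of panda 5 the 3 differences were 1.61, 1.59, and 1.5, and without that of panda 1 they were 1.84, 1.82, and 1.73, so each call ended. The call against the lung also ended without the kidney of panda 3 (1.92) or without the lung of panda 1 or 2 (1.98 each), and with TMM factors all 3 calls ended (1.88, 1.93, and 1.87). AHSG did not reach a mean of 1 FPKM in any tissue but the liver and was not tested in the 6 pairs without it. With no filter, its log2 differences in these pairs ranged from -0.40 to 0.16, and the adjusted p of limma was 0.138 to 0.933. The order of the tissues for AHSG therefore ended after the liver. For HRG it was liver, kidney, and then the other tissues. Among these, the place of the lung above the heart depended on the normalization and the fit, and its place above the spleen on the fit. The heart and spleen differed by 0.16 for HRG (adjusted p = 0.547 with no filter).

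Low values outside the liver and kidney came from few libraries. In panda 4, AHSG and HRG had 22 and 21 reads in the heart and 13 and 19 in the spleen, and in panda 5 the heart had 14 and 24. The AHSG to HRG ratio in the heart and spleen of panda 4 was 1.55 and 1.01, against 1.03 in that panda's liver, whereas in the heart of panda 5 it was 0.864 against 14.0. The 5 lungs held HRG in every library, but AHSG ranged there from 0 to 27 reads and GC from 0 to 9. The summed hepatocyte markers were 3.21 to 13 FPKM in the hearts, 27.8 to 117 in the spleens, and 22.7 to 82.6 in the lungs, highest in panda 4 for the heart and spleen and in panda 3 for the lung. The spleen of panda 4 also carried 3 lung epithelium markers at a sum of 122 FPKM, against 0.130 to 7.39 in the other spleens. Their part in these reads was not tested.

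Among the livers, the 3 genes split by which pandas were highest. AHSG and GC had their highest values in pandas 1 and 5, as did 25.1% of the 12355 genes expressed there (mean FPKM above 1), and HRG in pandas 2 and 4, as did 24%. Of 11 other plasma carriers, 8 were highest in pandas 1 and 5, among them APOA1 (20539 and 18585 FPKM), the main protein of high-density lipoprotein, and 2 were highest in pandas 2 and 4, one being RBP4 (8494 and 9741 FPKM), the retinol carrier. FETUB and AFM were also highest in pandas 1 and 5, and KNG1 in pandas 2 and 4. With TMM factors AHSG, HRG, GC, AFM, and KNG1 kept these pandas as the highest, whereas FETUB was highest in pandas 3 and 5, and the shares of all expressed genes were 16.4% for pandas 1 and 5 and 20% for pandas 2 and 4. The liver of panda 3 was lowest for all 3 genes in FPKM. With TMM factors it remained lowest for AHSG (3842 against 5452 to 22531) and HRG (647 against 1503 to 5286), but its GC, 1339, exceeded that of pandas 2 and 4 (827 and 729). The livers of pandas 2 and 4 correlated best across genes of all 50 pairs of libraries of 1 tissue (Pearson r = 0.992), and those of pandas 1 and 5 at 0.969. Pandas 2 and 4 were also the closest pair in the lung (0.985) and the heart (0.978). In the spleen and kidney the closest pair was pandas 1 and 5 (0.983 and 0.975), against 0.979 and 0.913 for pandas 2 and 4. The labels give pandas 2 and 4 as separate animals of different age, their libraries were not identical, and they were counted as separate samples.

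**Figure D5:**
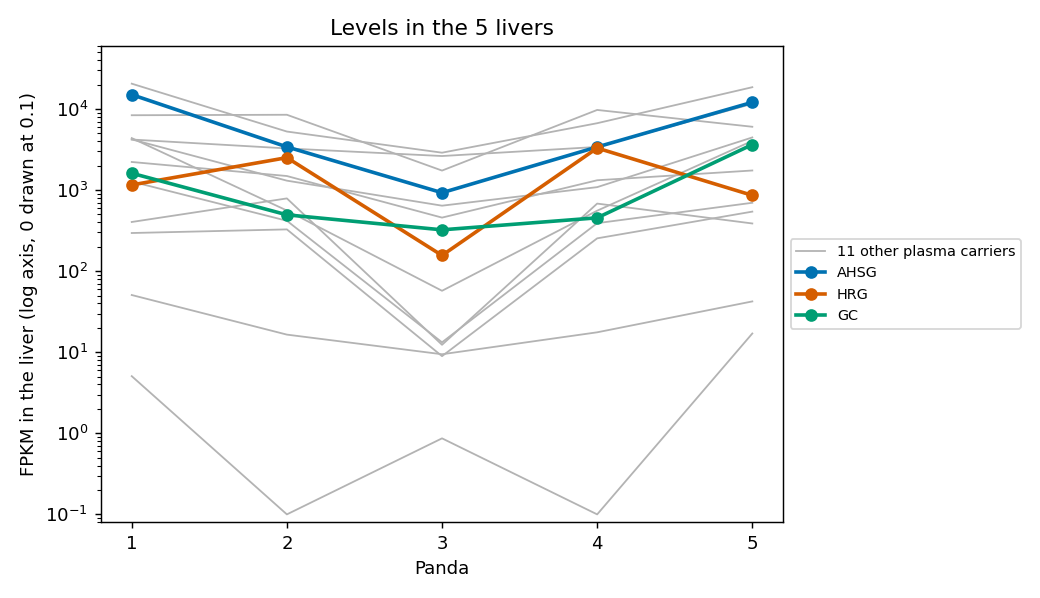
FPKM in the livers of pandas 1 to 5 (logarithmic vertical axis, 0 drawn at 0.1), with AHSG, HRG, and GC in color and 11 other plasma carriers in gray. Lines only join the values of a gene, as pandas have no order. AHSG and GC are highest in pandas 1 and 5 and HRG, at 2513 and 3299, in pandas 2 and 4.

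The partners of the 3 proteins were taken from lists of genes by known function. Symbols were paired with identifiers only for genes that the study had listed as tissue-specific on these same samples, so the counts below are not independent evidence of direction. Of 6 ligands of HRG, 5 had an identifier, and all 5 were higher in the liver than in the kidney. In this direction 2.35% of tested genes were called. The median log2 difference of the 5 ligands was 8.99. Plasminogen (PLG) had 1062 ± 786 FPKM in the liver and 0.455 ± 0.479 in the kidney, a log2 difference of 8.99. The fibrinogen chains FGA, FGB, and FGG differed by 9.20, 5.81, and 11.09, and coagulation factor XII (F12) by 5.65. FGB had 45.5 ± 19.9 FPKM in the kidney, where FGA and FGG had 1.02 ± 0.36 and 0.777 ± 0.506 (SD, n = 5 for each).

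The receptors that retrieve the vitamin D-binding protein were kidney genes. Of 10 genes of vitamin D handling, 6 had an identifier, and all 6 were higher in the kidney, a direction in which 11.7% of tested genes were called, with a median log2 liver minus kidney difference of -5.42. Megalin (LRP2) was at 66.7 ± 41.3 FPKM in the kidney and 0.0174 ± 0.0163 in the liver, and cubilin (CUBN) at 44.0 ± 23.9 and 0.0539 ± 0.0239. Their partners AMN, which carries cubilin to the membrane, and DAB2, an endocytic adaptor, were at 192 ± 147 and 148 ± 72 FPKM in the kidney. CYP24A1, which inactivates vitamin D, and its receptor VDR were at 122 ± 96 and 74.9 ± 41.1 (SD, n = 5 for each). LRP2, like GC, was lowest in the kidneys of pandas 4 and 2, at 13.5 and 32.2 FPKM against 88.9 to 108 in the others. CUBN was likewise lowest there, at 8.84 and 29.2 against 60.3 to 61.1, as were DAB2 and CYP24A1. AMN and VDR did not share this order. AMN was lowest in the kidneys of pandas 4 and 3 (14.2 and 102 FPKM), and VDR in those of pandas 4 and 5 (16.4 and 61.6 FPKM). In the kidney of panda 2, AMN was at 338 FPKM and VDR at 101 FPKM. Of 5 genes of mineral binding beside AHSG, only osteopontin (SPP1) had an identifier. It was higher in the kidney, with a log2 liver minus kidney difference of -6.33 (SE 1.05, adjusted p = 0.000554), at 4745 ± 3867 FPKM there and 52.2 ± 31.2 in the liver (SD, n = 5).

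Other secreted proteins of the liver gave the 3 genes a scale. Of all tested genes, 2.35% were called higher in the liver than in the kidney, the share to set beside the counts that follow. Of 11 plasma carriers, 10 were higher in the liver and 1 was not called (SERPINA7, 1.53, adjusted p = 0.0658), with a median log2 difference of 5.78. RBP4, APOH, and APOA1, the carriers highest in the kidney, had 1171 ± 544, 208 ± 105, and 81.0 ± 56.0 FPKM there (SD, n = 5), and a median of 20.6%, 3.18%, and 0.542% of the liver level. The median percentage of HRG (1.04%) lay between those of APOH and APOA1, that of GC (0.522%) just below APOA1, and that of AHSG (0.0217%) near HPX (hemopexin, the heme carrier), at 0.0147%. With TMM factors the median of AHSG (0.00395%) was below that of HPX (0.00976%). All 8 matched genes that rise in the acute phase response were higher in the liver (median 7.34), led by HAMP (hepcidin) at 23913 ± 21832 FPKM, SERPINA1 at 22532 ± 15713, and SERPINA3 at 4147 ± 3596. Of the latter, SERPINA1 and SERPINA3 were also among those highest in the kidney, at 127 ± 166 and 106 ± 186, with complement C3 at 107 ± 52 (SD, n = 5). C3 was the nearest of the 8 to the threshold (adjusted p = 0.0304), and in panda 3 it was higher in the kidney (185 FPKM) than in the liver (24.8 FPKM). The 3 matched genes that fall in that response, RBP4, TF (transferrin), and SERPINA6 (the cortisol carrier), were higher in the liver too, by 2.48, 6.12, and 4.56. Of 13 hepatocyte markers, 12 were higher in the liver (median 7.98) and CYP8B1 was not called (1.89), and all 11 proximal tubule markers were higher in the kidney (median -6.01, where 11.7% of tested genes were called in this direction).

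Among transcription factors of the liver, FOXA3, NR5A2, and CREB3L3 were higher in the liver than in the kidney, by 5.87, 4.40, and 3.36 on the log2 scale. ONECUT1 differed by 1.79 (adjusted p = 0.0119) and was not called.

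The genes with the most similar pattern were found by Pearson correlation of log2(FPKM + 1) over the 25 libraries, which is dominated by the step between the liver and the other tissues and is given as a description. For AHSG these were FGG (r = 0.998), FTCD (0.996), FGA (0.996), PLG (0.995), and FETUB (0.995), all of which had at most 1.02 FPKM on average in the kidney. For HRG they were SERPINC1 (antithrombin, r = 0.987), TM4SF4 (0.975), AMBP (0.975), AZGP1 (0.974), and an assembled transcript without a name (0.973). For GC they were LOC100477732 (r = 0.985), TM4SF4 (0.983), an assembled transcript without a name (0.982), AMBP (0.981), and SERPINC1 (0.980). HRG and GC thus shared 3 of these 5 genes, with mean kidney levels of 8.76 FPKM for SERPINC1, 3.97 for AMBP, and 2.41 for TM4SF4, and AHSG shared none with either. The 3 genes correlated with each other at 0.938 (AHSG and HRG), 0.956 (AHSG and GC), and 0.953 (HRG and GC).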

How the data were processed

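RNA-seq libraries of 5 tissues from each of 5 giant pandas were analyzed, grouped by tissue and numbered by panda as the labels give them. The authors aligned reads to the genome ailMel1 with HISAT2, assembled further transcripts with Cufflinks, counted reads per gene with HTSeq, and deposited FPKM computed from the count and gene length, with no normalization between libraries. From these FPKM values whole reads were recovered for 24207 genes (24205 of them within 0.05 reads), 13149580 to 21383380 per library, a step tested on simulated data. Gene symbols came from the study's list of tissue-specific genes. On log2(FPKM + 1), limma 3.58.1 in R 4.3.3 compared 2 tissues at a time, with the prior variance following the mean level, over genes whose mean exceeded 1 FPKM in 1 or both of them. Libraries of a panda share sex, age, and date of death in the labels, and the deviations of liver and kidney from the tissue means correlated at 0.0600 to 0.504 within a panda (median 0.289) and at -0.410 to 0.220 between pandas (median -0.0431). Hence the comparison was also fitted with the panda as a block. Pseudocounts, filters, TMM and quantile normalization, a joint fit, voom on recovered reads, and libraries left out were alternatives. Named genes were all matched members of the short lists (1 is not reported here), the 3 highest in the liver and kidney of the longer lists, and the 5 most similar genes. SERPINA7, CYP8B1, and HPX were named after their values were seen. The 3 genes and the lists were chosen with earlier results of these data known. All 25 columns matched a label.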

Additional observations from a re-analysis of the deposited data

Results flagged for a closer look

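In 15 groups of 5 libraries (3 genes in 5 tissues), 3 had a library far from the other 4 in FPKM by Dixon's criterion. For independent, normally distributed values this criterion flags about 1 of 20 groups. Several of these groups rested on few reads and the 3 genes share libraries, so that rate cannot be applied here. All 3 were libraries of panda 4. AHSG was at 0.793 FPKM and HRG at 0.782 FPKM in the spleen of panda 4, where the next spleens had 0.137 FPKM for each gene. The same spleen had the highest sum of lung epithelium markers (122 FPKM against 0.130 to 7.39) and of hepatocyte markers (117 FPKM against 27.8 to 84.8), and their part was not tested. HRG was at 2.38 FPKM in the kidney of panda 4, below the 11.2 to 14.3 FPKM of the others. With TMM factors these values were 2.85 and 8.56 to 15.1, a wider spread, and the criterion was not applied to them.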

How the results depend on the processing

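The liver minus kidney differences kept direction and call in all 24 alternatives for each gene, with ranges of 10.96 to 13.13 for AHSG, 5.85 to 7.83 for HRG, and 6.99 to 8.71 for GC. With the panda as a replicate block the adjusted p of limma was 7.80e-06, 0.000485, and 1.91e-05, and this block changed no call. In the other pairs of tissues the count of 15 calls ranged from 12 to 17. It was 12 without panda 1, 3, or 5, without the kidney of panda 1 or 5, and with TMM factors, each time without the 3 calls of GC in the kidney, and 17 with a pseudocount of 0.1 FPKM or voom on recovered reads, where HRG was called in the lung against the heart (2.18 and 3.02) and the spleen (2.72 and 3.93). The adjusted p of these HRG differences ranged from 0.00174 to 0.708 against the heart and from 0.00219 to 0.237 against the spleen over the alternatives. With quantile normalization it was 14. The median kidney percentage of AHSG moved to 0.00395% with TMM factors, while those of HRG and GC were 0.494% and 0.243%. The median over the 4 remaining pandas, with any 1 left out, was 0.0145% to 0.0233% for AHSG, 0.793% to 1.17% for HRG, and 0.298% to 0.556% for GC. HRG against AHSG ranged from 4.24 to 6.08, GC against AHSG from 3.38 to 4.58, and HRG against GC from 0.48 to 1.49. Leaving out single libraries in the other pairs, and the 2 that stood apart together, was chosen after seeing the data. Levels under 3 reads, as for GC in the hearts, cannot be ordered at this depth.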
